A study of Mus musculus with 6 samples.

Results

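Expressed Zfp genes are described here in mouse fibroblasts with and without Mki67, the gene for the nuclear antigen Ki-67. They are the protein-coding genes whose GENCODE M21 symbol is Zfp followed by digits alone and whose mean over 6 libraries was at least 5 CPM, a gene's count scaled to the total of all counts assigned to genes. Members were thus chosen by their mean level, which is given only as a description. The rule kept 182 of 365 such genes, out of 54146 genes counted. NIH/3T3, an immortal line from Swiss albino mouse embryo fibroblasts, was sequenced as Mki67-/- clone 1, Mki67-/- clone 2 and wild type (WT), with 2 libraries each. Every line was grown in high-glucose DMEM with 10% foetal bovine serum, and total RNA was depleted of ribosomal RNA before stranded sequencing. Each knockout line is a single clone, and the WT libraries are the only unedited ones. Nothing in the labels says that the libraries of a line came from separate cultures, and p-values here cover only how much these libraries vary, which may be technical.

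Most Zfp genes encode proteins with C2H2 zinc fingers, short loops held by a zinc ion that read DNA letters, and neighbouring fingers are strung together to read longer sites. Many also carry a KRAB domain, which recruits the corepressor Trim28 and, with it, the machinery that lays down repressive histone marks. Such KRAB genes lie in tandem clusters formed by repeated duplication and are best known for silencing retroelements and keeping imprints, while other Zfp proteins activate promoters, bind RNA or act on ribosomes and the spindle.

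The largest rise among the members belonged to Zfp979, a KRAB gene on chromosome 4 (GRCm38, chr4:147611937-147642513, minus strand), and the third largest to its cluster neighbour Zfp985 (chr4:147553277-147585198, plus strand). Their promoters are printed to show how alike these neighbours are, beside that of Zfp281, a rise from outside any KRAB cluster, and that of Zfp444, the largest fall called in both clones with a promoter in the RefSeq table. Each window holds 300 bases of GRCm38.p6, 250 before the RefSeq start and 50 after it, 5′ to 3′ on the gene's strand, with every CG dinucleotide in capitals. The windows are chr4:147642459-147642758 (minus strand) for Zfp979, chr4:147553027-147553326 (plus strand) for Zfp985, chr1:136624651-136624950 (plus strand) for Zfp281 and chr7:6172263-6172562 (plus strand) for Zfp444.
Zfp979: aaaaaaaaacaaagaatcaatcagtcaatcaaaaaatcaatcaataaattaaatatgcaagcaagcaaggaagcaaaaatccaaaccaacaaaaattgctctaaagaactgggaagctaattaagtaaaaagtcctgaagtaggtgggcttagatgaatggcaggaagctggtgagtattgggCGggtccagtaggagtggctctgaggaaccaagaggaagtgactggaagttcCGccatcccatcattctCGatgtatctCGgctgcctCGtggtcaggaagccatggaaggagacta
Zfp985: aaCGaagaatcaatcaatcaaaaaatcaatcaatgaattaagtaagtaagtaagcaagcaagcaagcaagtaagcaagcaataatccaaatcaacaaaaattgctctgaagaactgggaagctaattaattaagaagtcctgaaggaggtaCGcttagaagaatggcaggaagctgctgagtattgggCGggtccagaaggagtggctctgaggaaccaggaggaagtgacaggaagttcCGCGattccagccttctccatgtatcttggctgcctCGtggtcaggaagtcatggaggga
Zfp281: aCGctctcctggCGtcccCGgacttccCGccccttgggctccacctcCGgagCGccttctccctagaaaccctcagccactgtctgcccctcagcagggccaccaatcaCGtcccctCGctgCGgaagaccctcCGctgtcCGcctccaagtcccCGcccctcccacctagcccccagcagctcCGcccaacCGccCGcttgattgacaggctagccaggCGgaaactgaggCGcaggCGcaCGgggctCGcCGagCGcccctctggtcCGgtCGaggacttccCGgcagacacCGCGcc
Zfp444: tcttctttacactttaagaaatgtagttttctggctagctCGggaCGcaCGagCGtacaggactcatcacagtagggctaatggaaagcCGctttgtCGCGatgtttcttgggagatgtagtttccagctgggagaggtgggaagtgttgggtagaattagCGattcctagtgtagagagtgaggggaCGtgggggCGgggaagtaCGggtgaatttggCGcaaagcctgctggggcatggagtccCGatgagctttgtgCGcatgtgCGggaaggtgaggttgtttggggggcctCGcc
The Zfp979 and Zfp985 windows were identical at 254 of 305 aligned columns (83.3%), whereas Zfp979 matched Zfp281 at 35.0% and Zfp444 at 41.6%. Zfp979 held 5 CG dinucleotides and Zfp985 held 6, against 27 for Zfp281 and 16 for Zfp444. Of the 149 members with an entry in the table, 12 had 6 or fewer, and the median member had 17. The median was 17 in the 34 members called higher with an entry and 21 in the 14 called lower, against 23 in 8698 other protein-coding genes that were tested.

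Zfp979 was nearly 5 times as abundant in the knockout clones as in WT. It had 9.55 and 9.17 CPM in clone 1, 6.30 and 11.7 in clone 2 and, in WT, 1.29 and 1.93, and the groups did not overlap. The knockout mean, which weights both clones equally, was 2.31 ± 0.34 (SE) higher on the log2 scale, a fold of 4.97. Its WT mean was under 5 CPM, so it passed the rule through the knockout libraries alone and its difference is given as a description, with no p. The same holds for Zfp654, Zfp985 and Zfp948, which had the next largest rises. Zfp985 had 11.3 and 12.1 CPM in clone 1, 8.57 and 13.7 in clone 2 and, in WT, 2.58 and 5.45. Its log2 fold change was 1.26 ± 0.27 (SE). Zfp982, the next gene of the cluster, stood just outside the rule with a mean of 4.999 CPM. It had 7.52 and 6.39 CPM in clone 1, 4.98 and 8.22 in clone 2 and, in WT, 0.775 and 2.11 (log2 1.89). Zfp534 and Zfp984 of the same cluster, both under the minimum, were also called higher (log2 2.20 and 1.59), while Zfp991 and Zfp933 had values of 0.03 and 0.26 and were not called. Zfp534 had 1.02 and 1.29 CPM in clone 1, 0.252 and 0.530 in clone 2 and, in WT, 0.258 and 0.0879, under 3 counts in each WT library. It passed the count filter through clone 1 alone, so its value had to lean upward, and it was not called in clone 2. Zfp534 was not called in 4 of 6 fits leaving 1 library out, nor Zfp984 without WT replicate 2 (0.76). Without WT replicate 2 the log2 value was 2.05 for Zfp985 and 3.03 for Zfp982. These genes are near copies: 24.6% of the 50-base words in the longest Zfp979 transcript and 15.7% of those in the longest Zfp985 transcript occur in other genes, so how reads were divided among them is uncertain. Other genes of chromosome 4 had a median log2 fold change of -0.37, and 46.8% of them were called lower.

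Across all members, 38 were called higher and 24 lower in the knockout mean, at an adjusted p below 0.05 in edgeR's quasi-likelihood test with Benjamini-Hochberg adjustment over 13120 genes. Among all genes tested, 16.6% were called higher and 18.2% lower. The members' shares were 20.9% and 13.2%, and their median log2 fold change was 0.04, against 0.00 over all genes. Without library scaling the members' split was 44 higher and 17 lower. After a correction for GC content and gene length it was 29 and 29, against 16.9% and 17.7% of all genes. Only 4 of the 62 calls reached a 2-fold change, those of Zfp979, Zfp654, Zfp985 and Zfp948, whose WT means were under 5 CPM. The rule averaged all libraries, so a gene low in WT could enter through the clones: 13 members had a WT mean under 5 CPM and 9 of them were called higher, namely Zfp979, Zfp654, Zfp985, Zfp948, Zfp800, Zfp160, Zfp329, Zfp101 and Zfp958. These calls had to lean upward, and the 169 others held 29 higher and 24 lower calls.

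Clone 1 against WT gave 33 members called higher and 20 lower (15.2% and 16.5% of all genes). Clone 2 against WT gave 26 and 16 (12.9% and 14.5% of all genes). Leaving out 1 library moved these counts to 8 to 46 higher and 12 to 23 lower in clone 1, with the lowest of each without clone 1 replicate 2. In clone 2 they moved to 10 to 42 and 3 to 16, with 10 higher without clone 2 replicate 2, 3 lower without clone 2 replicate 1 and 42 higher without WT replicate 2. Both comparisons use the same WT libraries. In both clones, 23 members were called higher (9.57% of all genes) and 12 lower (11.2% of all genes), and no member was called in opposite directions. All 4 knockout libraries lay above both WT libraries for 65 members (35.7%, against 30.2% of all genes) and below both for 28 (15.4%, against 20.5%). The other 89 members overlapped. The 65 include members with a WT mean under 5 CPM, such as Zfp979, which passed the rule through the clones and had to lean upward.

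The files' depth differs between groups. Counts assigned to genes were 19678782 and 15491116 in clone 1 and 15862850 and 15087148 in clone 2, against 3873249 and 11377172 in WT. The median member had 58.5 counts in the shallowest library, WT replicate 1, and the lowest had 5; a count of 0 there allows up to 0.775 CPM, for counting error only. Mki67 had 4.27 to 7.82 CPM in the knockout libraries, against 46.7 and 53.8 CPM in WT. The fibroblast genes Col1a1, Vim and Thy1 had 515 to 651, 3445 to 3777 and 88.8 to 132 CPM in the knockout libraries, against 273 to 359, 5072 to 5261 and 204 to 210 CPM in WT. The fibroblast genes Col1a2 (1439 to 2204 CPM against 1227 and 2021) and Pdgfrb (78.6 to 103 against 78.2 and 112) overlapped WT. The epithelial gene Epcam and the muscle gene Myod1 were at 0 in all 6 libraries, while the muscle gene Des had 10.97 to 21.1 CPM in the knockout libraries against 6.20 and 7.47 CPM in WT, the endothelial gene Cdh5 0.775 to 1.51 against 3.36 and 4.13, and the immune gene Cd68 11.98 to 18.2 against 15.03 and 18.3. Their part in the results was not tested. The extraction text names 4T1, a mammary carcinoma line, where the titles name NIH/3T3. In bulk RNA, fewer cells that express a gene and less RNA per cell cannot be told apart.

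The 12 largest rises among members called in both clones were Zfp979, Zfp654, Zfp985, Zfp948, Zfp407, Zfp281, Zfp945, Zfp644, Zfp91, Zfp24, Zfp800 and Zfp106. They ran over log2 fold changes of 0.81 to 2.31 in the knockout mean, and none of the 12 had overlapping knockout and WT libraries. That separation largely follows from how they were picked, and 30.2% of all tested genes lay above WT in the same way. Zfp979, Zfp985, Zfp948 and Zfp945 carry the KRAB core, and without WT replicate 2 the log2 value of Zfp948 was 1.82. Zfp654 had 6.403 and 8.65 CPM in clone 1, 7.44 and 8.95 in clone 2 and, in WT, 2.32 and 2.81 (log2 1.48 ± 0.25). Its 4 knockout values were all more than 2 times either WT value. Zfp948, a KRAB gene with 15 fingers on chromosome 17, had 7.47 and 10.3 CPM in clone 1, 8.32 and 9.08 in clone 2 and, in WT, 2.32 and 4.39 (log2 1.15). Zfp407, which acts on PPARγ target genes in mouse fat cells, had 11.5 and 19.0 CPM in clone 1, 17.2 and 16.5 in clone 2 and, in WT, 6.20 and 8.35 (log2 1.00 ± 0.23). Zfp24, needed for myelination in mice, had 15.6 and 23.0 CPM in clone 1, 22.4 and 19.2 in clone 2 and, in WT, 9.55 and 10.3 (log2 0.92). The call of Zfp800 was lost after the correction for GC content and length given above (log2 0.48). In 11 of these 12 genes clone 1 replicate 1 was the lower library of its clone and in all 12 WT replicate 1 was the lower of its group.

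**Figure D1:**
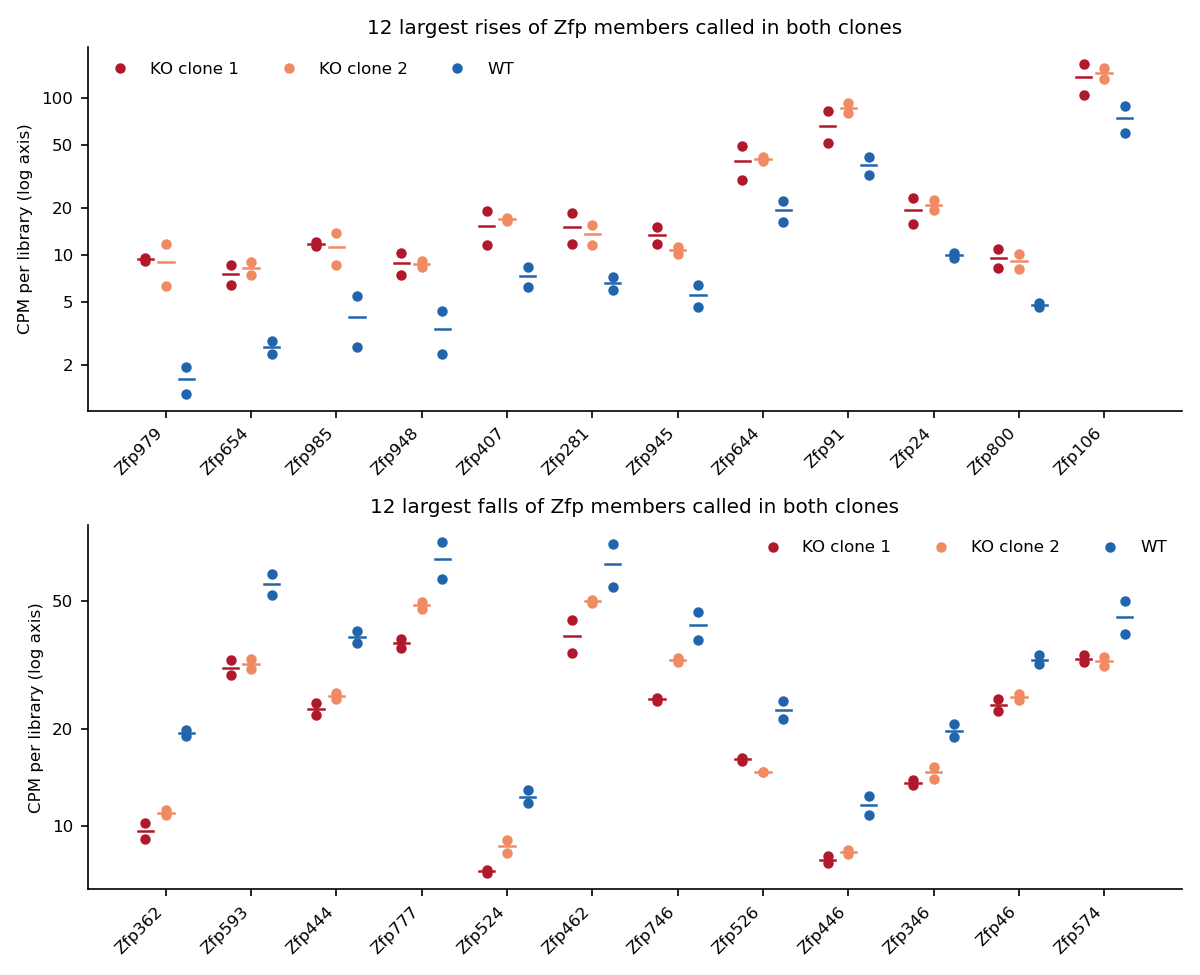
CPM in each library (log axis) of 12 rises and 12 falls, the largest of members called in both clones; points are libraries, short lines are means of 2, with clone 1, clone 2 and WT from left to right. All knockout points lie above both WT points in the upper panel, as for Zfp979 (6.30 to 11.7 against 1.29 and 1.93), and below both in the lower panel. The genes were picked by their calls, so this separation largely follows from the choice.

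The rises above were headed by Zfp979, Zfp654, Zfp985 and Zfp948, which passed the rule through the clones. Among the 169 members with a WT mean of at least 5 CPM, log2 fold changes ran from -0.995 to 0.997. The 12 largest falls of members called in both clones had log2 fold changes of -0.995 to -0.50. They were Zfp362, Zfp593, Zfp444, Zfp777, Zfp524, Zfp462, Zfp746, Zfp526, Zfp446, Zfp346, Zfp46 and Zfp574, and all knockout libraries of each lay below both WT libraries. This too largely follows from how they were picked, and 20.5% of all tested genes lay so. Zfp362 (chr4:128773088-128806045) had 10.3 and 9.10 CPM in clone 1, 11.2 and 10.8 in clone 2 and, in WT, 19.1 and 19.9. Neither clone reached a WT value, and the log2 fold change was -0.995 ± 0.15 (adjusted p = 2.26e-04 in edgeR). Zfp593, whose yeast and human counterparts act in maturation of the large ribosomal subunit, had 32.7 and 29.4 CPM in clone 1, 30.7 and 33.0 in clone 2 and, in WT, 60.7 and 52.2 (log2 -0.91 ± 0.13, adjusted p = 1.12e-04 in edgeR). Zfp444 had 22.2 and 24.1 CPM in clone 1, 24.8 and 26.0 in clone 2 and, in WT, 40.3 and 36.9 (log2 -0.74). Zfp746, known as PARIS, a repressor of the PGC-1α gene, had 25.1 and 24.5 CPM in clone 1, 33.3 and 32.3 in clone 2 and, in WT, 38.0 and 46.2. Its log2 fold change was -0.65, with clone 1 below clone 2 in every library. Zfp524 had a log2 fold change of -0.70, but 46.0% of its 50-base words occur in another gene that overlaps it on the same strand, so its counts are uncertain. The calls of Zfp446, Zfp346 and Zfp46 were lost without WT replicate 2 (log2 -0.51, -0.50 and -0.47), and that of Zfp574 without WT replicate 1 (-0.33). After the correction for GC content and length Zfp574 also lost its call in the knockout mean (-0.21). In clone 2 against WT, Zfp524 was not called in 4 of 6 fits leaving 1 library out. Zfp777, Zfp462, Zfp746, Zfp446, Zfp346, Zfp46 and Zfp574 were each not called in 3, Zfp444 and Zfp526 in 1, and Zfp362 and Zfp593 in 0. That correction also removed the clone 2 calls of Zfp777, Zfp524, Zfp746, Zfp346, Zfp46 and Zfp574.

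Roles sort these genes in several ways, and each list's counts stand against 16.6% called higher and 18.2% lower of all genes. Of 6 members that bind retroelements or imprinted loci, Zfp445 and Zfp961 rose and none fell. Zfp445, a maintainer of imprints, had 20.4 and 27.1 CPM in clone 1, 25.5 and 27.2 in clone 2 and, in WT, 15.0 and 16.2 (log2 0.59 ± 0.16, adjusted p = 0.0109 in edgeR). Zfp961 rose by 0.66 on the log2 scale (adjusted p = 0.0101 in edgeR). After the correction for GC content and length both missed the threshold (log2 0.35 and 0.36, adjusted p = 0.0586 and 0.0767 in edgeR). Zfp57, the other imprint maintainer, had 31.1, 31.3, 29.1 and 26.2 CPM in the knockout libraries, against 28.1 and 34.8 CPM in WT, which overlap; it was not called (log2 -0.20), but was called lower after that correction (-0.32). Zfp568, Zfp638 and Zfp809, a silencer of proviral DNA, had log2 values of 0.32, 0.23 and 0.23 and were not called. The list's other 6 genes were under the minimum.

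Of 10 members acting on RNA, translation or ribosomes, Zfp106, Zfp326 and Zfp697 rose, Zfp593, Zfp36 and Zfp346 fell, and 4 were not called. Zfp106, an RNA-binding protein needed in mouse motor neurons and muscle, had 105 and 165 CPM in clone 1, 156 and 131 in clone 2 and, in WT, 59.6 and 88.2 (log2 0.81 ± 0.18, adjusted p = 0.0038 in edgeR). Zfp36, or tristetraprolin, which speeds decay of AU-rich mRNAs through CCCH rather than C2H2 fingers, had 13.01 and 12.3 CPM in clone 1, 17.5 and 18.2 in clone 2 and, in WT, 19.1 and 22.8 (log2 -0.58). The Zfp36 call was lost without WT replicate 2 (log2 -0.44). Zfp326, of a complex that links elongation to splicing, had a log2 fold change of 0.75 and lost its call without WT replicate 1 (0.50), against 1.45 without WT replicate 2. Zfp598, the ubiquitin ligase of collided ribosomes, had 83.6 and 89.6 CPM in clone 1, 72.2 and 70.5 in clone 2 and, in WT, 64.8 and 66.0. Its libraries did not overlap, yet its log2 value of 0.19 was not called (adjusted p = 0.208 in edgeR), and was 0.47 with a call after the correction for GC content and length.

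Of 16 members that act in transcription or with chromatin complexes, 5 rose and Zfp462 fell. Zfp281, a binder of GC-rich promoters studied in pluripotent cells, had 11.8 and 18.5 CPM in clone 1, 11.5 and 15.5 in clone 2 and, in WT, 5.94 and 7.21 (log2 1.00 ± 0.24, adjusted p = 0.00513 in edgeR). Zfp644, a partner of the histone methyltransferases Ehmt1 and Ehmt2, had 30.1 and 49.3 CPM in clone 1, 39.5 and 42.3 in clone 2 and, in WT, 16.3 and 22.1 (log2 0.94 ± 0.20). Zfp143, an activator of many promoters including those of small nuclear RNAs, had 20.6 and 22.1 CPM in clone 1, 21.1 and 17.0 in clone 2 and, in WT, 9.81 and 13.6 (log2 0.65). The WT libraries were the 2 lowest for all 3 genes. Zfp148 and Zfp318 were called at log2 values of 0.61 and 0.67; Zfp148 lost its call after the correction for GC content and length (0.17), and Zfp318 was not called in 3 of 6 fits leaving 1 library out. Zfp462, also a partner of Ehmt1 and Ehmt2, had 34.4 and 43.5 CPM in clone 1, 50.4 and 49.3 in clone 2 and, in WT, 55.3 and 75.1 (log2 -0.66 ± 0.14, adjusted p = 0.00211 in edgeR).

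Of 8 mesenchymal or developmental members, Zfp462 and Zfp503 fell and none was called higher. Zfp703 was called higher in clone 1 alone (log2 0.58) and, after the correction for GC content and length, in the knockout mean (0.69, against 0.42 without it). That correction also gave calls to Zfp219 (0.56), Zfp516 (0.44) and Zfp521 (-0.35), whose values without it were 0.24, 0.28 and -0.42. Zfp503, a developmental repressor, had 5.79 and 7.49 CPM in clone 1, 11.5 and 11.5 in clone 2 and, in WT, 9.55 and 18.5, so clone 2 overlapped WT. Its log2 fold change of -0.86 was -0.23 and not called without WT replicate 2. Of 7 members tied to mitosis or growth, Zfp207 and Zfp91 rose and Zfp369 fell. Zfp207, a microtubule-binding protein that loads Bub3 at kinetochores, had 282 and 282 CPM in clone 1, 300.2 and 269 in clone 2 and, in WT, 194 and 213 (log2 0.40 ± 0.11, adjusted p = 0.0134 in edgeR). The call was lost without WT replicate 1 (0.35) and without clone 2 replicate 1, and after the correction for GC content and length its log2 value was 0.03. Zfp91, a ubiquitin ligase of NF-κB signalling, had 51.3 and 81.9 CPM in clone 1, 93.3 and 79.9 in clone 2 and, in WT, 32.3 and 42.2 (log2 0.92 ± 0.18, adjusted p = 0.00135 in edgeR). Zfp369 had a log2 fold change of -0.64 and was not called in 3 of 6 fits leaving 1 library out.

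Per kilobase of exon, the 8 highest members were Zfp207 (38.5 CPM per kb, mean of 6 libraries), Zfp740 (32.6), Zfp771 (21.1), Zfp706 (21.04), Zfp598 (19.1), Zfp593 (19.1), Zfp768 (17.8) and Zfp637 (17.5). In this abundant group Zfp207 was called higher and Zfp593 and Zfp637 lower, and Zfp637 (log2 -0.37) was not called in 4 of 6 fits leaving 1 library out. Zfp740, with 171 and 170 CPM in clone 1, 160 and 152 in clone 2 and, in WT, 162 and 182, overlapped between groups. Most members were scarce: the median of their mean levels was 17.5 CPM, 45 lay under 10 CPM and 5 at or above 100 CPM. Just inside the minimum were Zfp329, Zfp748 and Zfp1, at 5.21, 5.35 and 5.50 CPM, and just outside it Zfp982, Zfp94 and Zfp952, at 4.999, 4.92 and 4.89 CPM. The summed level of all members was 4822 and 5145 CPM in clone 1, 5095 and 4945 in clone 2 and, in WT, 4280 and 4792.

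A KRAB core was found in 53 members and in 115 of the 183 Zfp genes under the minimum. KRAB members were scarcer per kilobase than the others, with a median of 2.63 against 4.03 CPM per kb, and had a median of 12 fingers against 8. Of the 53, 12 were called higher and 4 lower (median log2 fold change 0.12); of the 129 without the core, 26 were called higher and 20 lower (median -0.05). In percent these are 22.6% higher and 7.55% lower with the core and 20.2% and 15.5% without it, against 16.6% and 18.2% of all genes. Of the 12 KRAB rises, Zfp979, Zfp985, Zfp948, Zfp101, Zfp160 and Zfp958 had a WT mean under 5 CPM and passed the rule through the clones. Another pattern for the core, which left out Zfp160 and added 10 members, counted 62, with 12 higher and 5 lower. The difference between these groups was not tested. KRAB members were poorer in GC, with a median of 43.6% over each gene's longest transcript against 49.7% in the others. Among the 108 tested Zfp genes under the minimum, 21 were called higher and 6 lower. By the pattern searched, Zfp142 had the most fingers, 36, and 6 members had none.

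GC content moved with the direction of change. Members called higher had a median GC of 40.7% and exons of 6.99 kb, members called lower 53.7% and 4.601 kb, and members not called had 48.6% GC. The 91 members with less GC held 32 higher and 3 lower calls, and the 91 with more GC held 6 and 21. All tested genes split the same way, with 27.8% higher and 9.06% lower under the members' median GC, and 8.66% and 24.6% above it. Replicates of WT and of clone 1 also differed in the 38 members called higher: WT replicate 1 lay under WT replicate 2 in all but 3, with a median log2 difference of -0.43, and clone 1 replicate 1 lay under clone 1 replicate 2 in all but 3, with -0.40. In clone 2, replicate 1 lay above replicate 2 in 20 of the 38, with 0.02. After the correction for GC content and length, 18 of the 38 higher and 19 of the 24 lower calls were kept, and the 91 with less GC held 13 higher and 12 lower calls and the 91 with more GC 16 and 17. The part of GC content in the changes beyond this correction was not tested. Calls that were kept in that correction and in all 6 fits leaving out 1 library numbered 14 higher and 8 lower. The higher ones were Zfp979, Zfp654, Zfp985, Zfp948, Zfp407, Zfp281, Zfp945, Zfp644, Zfp91, Zfp24, Zfp697, Zfp106, Zfp143 and Zfp275, and the lower ones Zfp362, Zfp593, Zfp444, Zfp777, Zfp524, Zfp462, Zfp746 and Zfp526. Of the higher ones, Zfp979, Zfp654, Zfp985 and Zfp948 passed the rule through the clones, so their calls had to lean upward and are only a description. With the correction and 1 WT library left out together, settings chosen after seeing the data, Zfp91, Zfp697, Zfp106 and Zfp275 of the higher ones and Zfp362, Zfp593, Zfp444 and Zfp462 of the lower ones were called in both fits. The others lost the call in at least 1, Zfp979 without WT replicate 2.

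**Figure D2:**
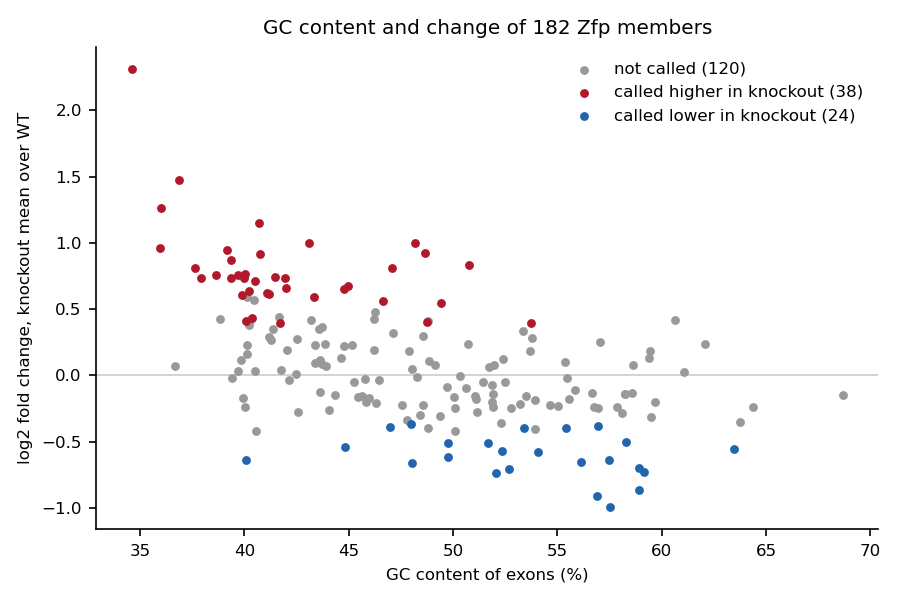
GC content of each gene's longest transcript (x axis, percent) against the log2 fold change of the knockout mean over WT (y axis) for 182 members, coloured by call. The 38 members called higher sit mostly at low GC (median 40.7%) and the 24 called lower at higher GC (median 53.7%).

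Members lay on 20 chromosomes, with 52 on chromosome 7 alone. Chromosome 17 had the most rises: 7 of its 15 members were called higher and none lower, with a median log2 fold change of 0.57, against 0.00 for other genes of the chromosome, of which 12.8% were called higher and 15.4% lower. Of these 7, Zfp101, Zfp160 and Zfp948 passed the rule through the clones, and Zfp101, Zfp160, Zfp799 and Zfp871 lost the call after the correction for GC content and length. Chromosome 5 had 5 of 11 called higher and none lower (median 0.28, against 0.10 for other genes, of which 17.7% were called higher and 9.85% lower). Of the 24 falls, 11 were among the 52 members of chromosome 7 and 4 among the 9 of chromosome 4. Another 4 were among the 12 of chromosome 6 and 3 among the 7 of chromosome 13. Of other genes, 46.8% were called lower on chromosome 4, 19.3% on chromosome 6 and 36.3% on chromosome 13. On chromosome 7, 3 members were called higher, and the members' median of -0.08 compared with -0.28 for other genes, of which 38.0% were called lower. On chromosome 13 the members' median was -0.42, against -0.31 for other genes. Chromosomes 4, 7 and 13, put together after their values were seen, held 5 higher and 18 lower of 68 members, and 6.94% higher and 40.0% lower of 2232 other genes. All remaining chromosomes held 33 higher and 6 lower of 114 members, and 18.5% higher and 13.7% lower of 10706 other genes. Gene copy number was not measured.

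**Figure D3:**
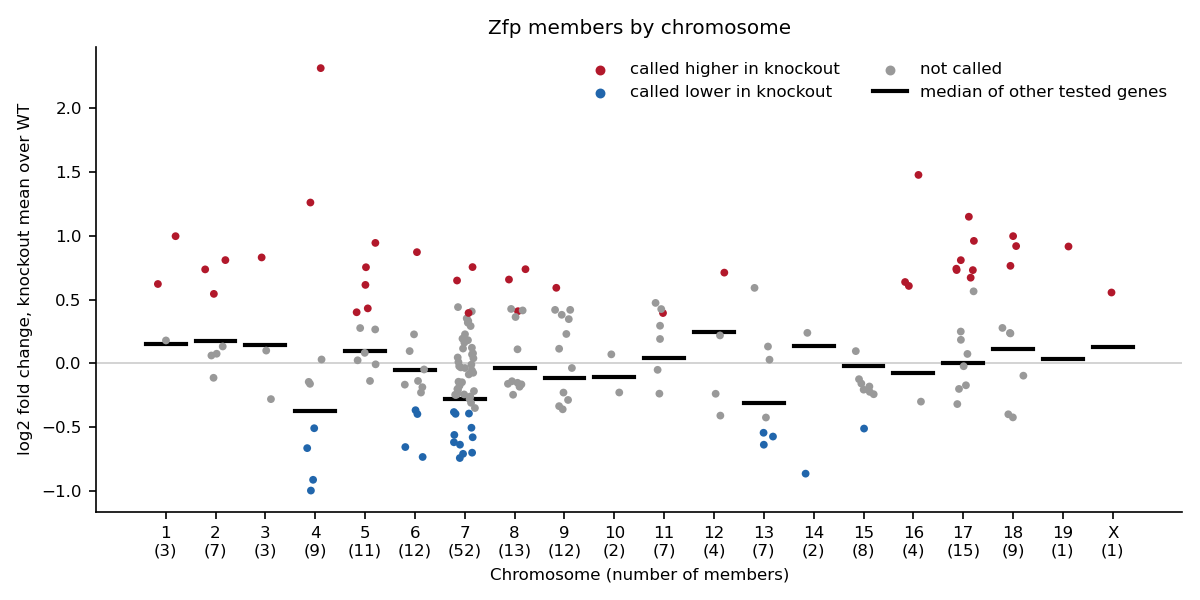
Log2 fold change of the knockout mean over WT (y axis) for each member, by chromosome (x axis, number of members in brackets), coloured by call; black bars are medians of the other tested genes of the chromosome. Chromosomes 4, 7 and 13 have low bars (-0.37, -0.28 and -0.31) and 18 of the 24 falls, and chromosome 17 has 7 of the 38 rises.

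Clusters were chains of 3 or more Zfp genes with gaps of at most 250 kb, expressed or not. There were 31, and they held 81 members, of which 12 were called higher and 13 lower; of the 101 members outside them, 26 were called higher and 11 lower. The shares inside clusters, 14.8% and 16.0%, lay near the 16.6% and 18.2% of all genes, and outside them they were 25.7% and 10.9%; the difference was not tested. Neighbours here are the other tested genes of the span and 1 Mb on either side. The 11 clusters with at least 3 members differed in direction. At chr17:32765496-33631779 all 5 members had values above 0, Zfp871, Zfp799 and Zfp101 were called higher (log2 0.73, 0.73 and 0.74), and the median was 0.73, against 0.01 for 56 neighbours. Zfp871 had 22.5 and 31.1 CPM in clone 1, 24.02 and 30.1 in clone 2 and, in WT, 14.7 and 15.7, without overlap, while Zfp101 was not called in 3 of 6 fits leaving 1 library out and Zfp799 in 2 of 6, with 1.41 for Zfp799 without WT replicate 2. After the correction for GC content and length none of these 3 was called (log2 0.31 for Zfp871, 0.43 for Zfp799 and 0.43 for Zfp101). Zfp414, the lowest of the 5 at 0.25 and not called, was called higher after that correction (0.45), and shares 43.9% of its 50-base words with other genes. At chr18:23954692-24020810 Zfp397 and Zfp24 were called higher and Zfp35 was not (0.76, 0.92 and 0.24), with a median of 0.12 for 10 neighbours; Zfp397 lost its call in the same correction (0.37) and stood at 1.43 without WT replicate 2. In the KRAB cluster at chr17:21383748-22456689, with 18 genes and 3 members, Zfp948 was called higher while Zfp53 and Zfp52 had values of -0.02 and -0.17 and Zfp52 was called lower after the correction (-0.58).

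Of the 13 falls in clusters, 11 lay on chromosomes 6 and 7, and the others were Zfp87 on chromosome 13 (log2 -0.54) and Zfp7 on chromosome 15 (-0.51), each not called in 2 of 6 fits leaving 1 library out. At chr6:47819266-48086593 all 6 members had values below 0 in the knockout mean and Zfp282, Zfp777 and Zfp746 were called lower, with a median of -0.31, against -0.27 for 20 neighbours. The median was -0.57 in clone 1, where 0 members lay above 0 and 3 were called lower. In clone 2 it was -0.11, and 2 members lay above 0 and 2 were called lower. Zfp282 was not called in 4 of 6 fits leaving 1 library out, nor after the correction for GC content and length (log2 -0.18). Zfp777 had 38.2 and 35.8 CPM in clone 1, 47.2 and 49.8 in clone 2 and, in WT, 76.2 and 58.5 (log2 -0.73 ± 0.13), and Zfp398 was the least changed at -0.17. At chr7:4915217-5053723 Zfp628, Zfp524 and Zfp865 were called lower and Zfp579 had -0.35 (median -0.47, against -0.40 for 23 neighbours). After the correction for GC content and length neither Zfp628 nor Zfp865 was called (log2 -0.24 and -0.15). Zfp628 was not called in 3 of 6 fits leaving 1 library out and Zfp865 in 5 of 6. At chr7:6131491-6396915 Zfp787 and Zfp444 were called lower and Zfp28 had -0.21, with only 3 neighbours, whose median was 0.48; Zfp787 was not called in 4 of 6 such fits. At chr7:12804977-12985714 Zfp324 and Zfp446 were called lower and Zfp329 higher (log2 0.76), with neighbours at -0.45. Zfp329 and Zfp324 were each not called in 3 of 6 such fits, nor after the correction for GC content and length (log2 0.38 and -0.23). At chr7:24081924-24587641 Zfp61 alone of 6 was called, at -0.71, and lost its call without WT replicate 2 (-0.45); Zfp111 was the highest at 0.23, and the neighbours' median was -0.55.

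In the remaining clusters hardly any member was called. At chr7:29768552-30169750, 8 of 9 members had values above 0 and none was called with all 6 libraries, from -0.01 for Zfp27 to 0.44 for Zfp260, while 28 of 52 neighbours were called lower (medians 0.12 and -0.48). Zfp260 stood at 0.87 without WT replicate 2 and 0.55 without clone 1 replicate 1. At chr9:20345136-20605409, 4 of 5 members had values above 0 and none was called with all 6 libraries, from -0.04 for Zfp846 to 0.42 for Zfp26, with neighbours at -0.28. Zfp26 stood at 0.78 without WT replicate 2 and 0.53 without clone 1 replicate 1. At chr7:127233061-127885996, Zfp629 alone of 10 was called (log2 0.40), and it was not called in 5 of 6 fits leaving 1 library out. Its lowest member, Zfp747, had -0.24 and shares 36.9% of its 50-base words with other genes.

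**Figure D4:**
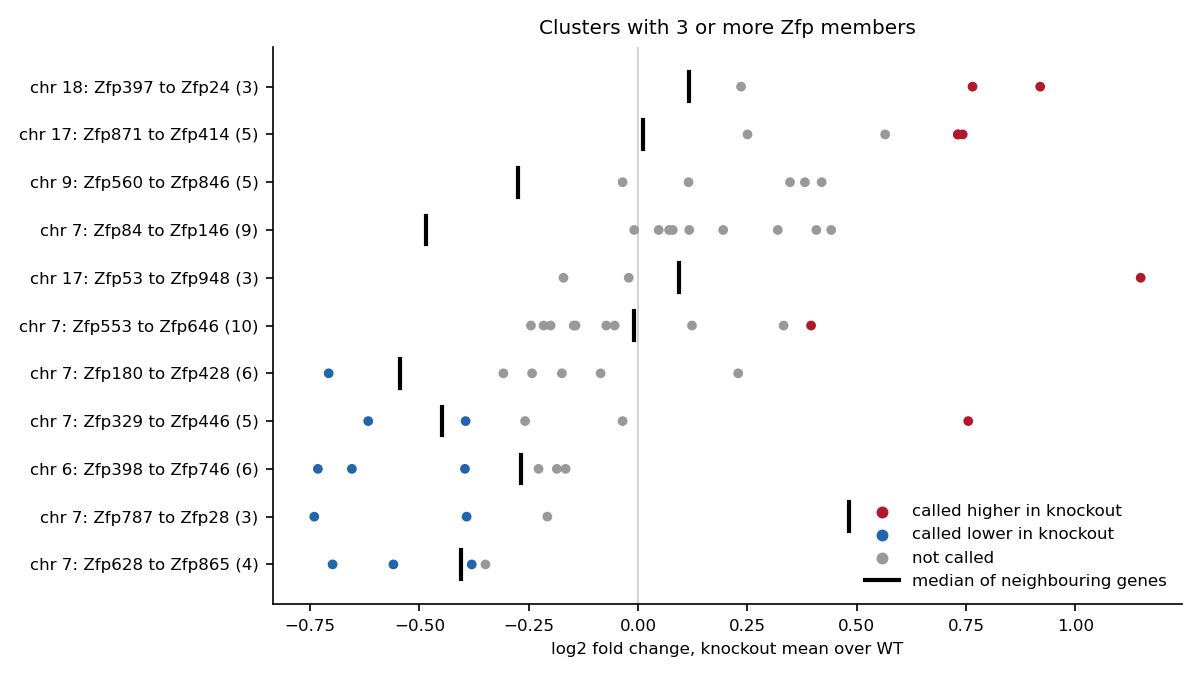
Log2 fold change of the knockout mean over WT (x axis) for the members of the 11 clusters with at least 3 members (rows, from the highest to the lowest median), coloured by call; black bars are medians of neighbouring genes. The chromosome 7 cluster of 9 members has a median of 0.12, right of its neighbours' bar at -0.48, and the chromosome 17 cluster of 5 has 0.73, with its bar at 0.01.

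The clones themselves differed in few members. Clone 2 against clone 1 gave 1 member called higher and 2 lower, against 1.18% and 2.36% (3.54% in all) of the genes tested. Zfp697, an RNA-binding protein of regenerating mouse muscle, had 16.2 and 15.7 CPM in clone 2, 27.2 and 26.9 in clone 1 and, in WT, 11.1 and 11.1. Clone 2 stood between clone 1 and WT, with a log2 fold change over clone 1 of -0.77 ± 0.15 (adjusted p = 0.00854 in edgeR). Zfp251 had 12.3 and 9.35 CPM in clone 2, 16.5 and 18.7 in clone 1 and, in WT, 13.9 and 15.8 (log2 -0.70 ± 0.18, adjusted p = 0.0419 in edgeR). Zfp282 had 43.8 and 44.1 CPM in clone 2, 32.0 and 25.3 in clone 1 and, in WT, 47.0 and 42.2 (log2 0.61 ± 0.15, adjusted p = 0.0404 in edgeR). Each of the 3 calls was lost in some fit without a clone library: Zfp251 lost it without any 1 of the 4, Zfp282 without 3 of the 4 and Zfp697 without 3 of the 4.

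Genes outside the Zfp symbols were read in the same fit, in a list around the KRAB corepressor and in other zinc finger families. Of 23 genes listed with the KRAB corepressor, 7 were called higher and 1 lower (30.4% and 4.35%, against 16.6% and 18.2% of all genes). The 7 were Trim24, Trim33, Smarca5, Mphosph8, Pphln1, Cbx5 and Morc3, while Setdb1, Atf7ip, Chd3, Chd4, Hdac1 and Hdac2 were not called. Trim28 itself, which KRAB domains bind, had 467 and 439 CPM in clone 1, 444 and 496 in clone 2 and, in WT, 760.1 and 631 (log2 -0.67 ± 0.12, adjusted p = 8.59e-04 in edgeR), and lies on chromosome 7. Smarca5, a nucleosome remodeller, had 11.7 and 17.0 CPM in clone 1, 13.05 and 20.3 in clone 2 and, in WT, 4.13 and 7.21 (log2 1.25). Mphosph8, of the HUSH silencing complex, was called at 1.02, but not in 3 of 6 fits leaving 1 library out. Of 16 SCAN genes, 3 were called higher and 3 lower; of 30 BTB zinc finger genes, 8 and 6; and of 11 Krüppel-like factors, 3 and 2. These counts stand against the same shares of all genes, and no list was tested against them.

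The members' promoters were searched for 5 motifs on both strands, in 149 members, 27025 genes and 8698 tested protein-coding genes outside the Zfp symbols. The ETS motif CCGGAAG was in 22.8% of member promoters, against 9.93% of all and 21.4% of the tested genes. The NRF1 palindrome was in 4.70%, against 1.07% and 2.45%. The YY1 motif AAGATGG was in 8.05%, against 7.28% and 8.67%. The CREB motif TGACGTCA was in 3.36%, against 2.03% and 3.77%, and the BANP palindrome in 0.671%, against 0.525% and 1.28%. None of these motifs holds another. A match describes letters in a window and is not evidence of binding.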

How the data were processed

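The 6 NIH/3T3 libraries were sequenced by the submitters and aligned with STAR 2.6.0c to GRCm38, per the submitters' processing notes, and the deposited count tables give whole-number read counts per gene, unnormalized, as unstranded, forward and reverse columns. Reverse-strand counts were used here, after the stranded kit named in the labels' protocols; rows that name no gene (46.6 to 50.5% of a library) were left out. Symbols and coordinates came from GENCODE M21, matching 54079 of 54146 genes, and promoters from the RefSeq table of GRCm38.p6. Counts were scaled by TMM (factors 0.951 to 1.03), filtered with filterByExpr (minimum count 10) and tested in edgeR 4.0.16 (R 4.3.3) by quasi-likelihood over 3 groups of 2 libraries, with 3 residual degrees of freedom and calls at an adjusted p below 0.05. CPM used all gene counts. The fitting was tested on simulated data. Finger counts and KRAB cores were read by pattern from coding sequences. Alternatives covered scaling, filters, strand, GC content and length, depth, limma 3.58.1 and DESeq2 1.42.0 and each library left out.

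Members and gene lists were chosen with earlier results of these data known. Named members were the 12 largest rises and falls called in both clones, members called between clones, the 8 highest per kb, the 3 nearest the minimum on each side, the lists' members and each cluster's extremes. Other cluster members, Zfp275, Zfp142, Zfp160 and Zfp958 were named after their values were seen. The sample titles do not say whether replicate numbers pair the libraries, and the main fit treated them as unpaired.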

Additional observations from a re-analysis of the deposited data

Results flagged for a closer look

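Among the members, 3 differed between the clones, by the test of clone 2 against clone 1 itself. Zfp697 was lower in clone 2 by a log2 fold change of -0.77, with a change over WT of 0.45 in clone 2 and 1.21 in clone 1. Zfp251 was lower in clone 2, at -0.70, with -0.56 over WT in clone 2 and 0.15 in clone 1. Zfp282 was higher in clone 2, at 0.61, with -0.09 over WT in clone 2 and -0.70 in clone 1. Other genes had a median of 0.23 in this test on chromosome 6, with Zfp282, and -0.18 on chromosome 15, with Zfp251. Each line is a single clone, so differences between clones and between edited cells cannot be told apart here.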

How the results depend on the processing

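Members called in the knockout mean numbered 26 to 47 higher and 16 to 26 lower when 1 library was left out. For clone 1 the ranges were 8 to 46 and 12 to 23, with the lowest of each without clone 1 replicate 2. For clone 2 they were 10 to 42 and 3 to 16, with 14 and 3 without clone 2 replicate 1, 10 and 4 without clone 2 replicate 2, and 42 and 9 without WT replicate 2. Between clones they were 0 to 6 and 0 to 3. Requiring a fold above 1.5 left 3 higher and 2 lower calls in the knockout mean and in clone 1, 3 and 0 in clone 2, and 0 and 0 between clones. DESeq2 gave 15 lower in the knockout mean, 7 lower in clone 2 and 1 lower between clones. Clone 2 had 6 lower without scaling, 9 with no low-count filter and 8 after thinning to equal depth, and 17 higher among members of at least 10 CPM. Between clones, higher calls numbered 8 with the correction for GC content and length, 6 with that correction and the replicate block, 2 with no low-count filter, 2 with only the groups compared, and 0 without scaling or after thinning. Lower calls between clones numbered 1 without scaling, 1 with upper quartile scaling and 0 after thinning. The correction for GC content and length gave 25 and 11 higher in the knockout mean without WT replicate 1 and without WT replicate 2, settings chosen after seeing the data.

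The sample titles do not say whether replicate numbers pair the libraries. Deviations of the first replicates from their group means correlated at 0.27 for WT and clone 1, -0.09 for WT and clone 2 and -0.11 between clones. A shared batch was not tested. The replicate block gave 45 higher and 25 lower in the knockout mean, 37 and 20 in clone 1, 38 and 16 in clone 2, and 2 and 2 between clones. Zfp110 turned to 0.56 in the knockout mean, 0.57 in clone 1 and 0.56 in clone 2 without WT replicate 2, with lowest values over the libraries left out of -0.38, -0.37 and -0.39, without WT replicate 1. Zfp207 in clone 2 turned to -0.00315 with the correction and -0.00418 with the block added. With the correction and without WT replicate 2, Zfp131 turned to -0.70, Zfp148 to -0.051, Zfp207 to -0.15, Zfp503 to 0.051, Zfp871 to -0.00151, Zfp958 to -0.19 and Zfp984 to -0.13, and without WT replicate 1 Zfp771 turned to 0.40. The cause was not tested in any of these. WT replicate 1, with 3873249 counts, limits the precision of every comparison with WT.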
